A study of Mus musculus with 23 samples.

Results

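Imprinted growth genes were followed across mouse fibroblasts, T cells and lymphomas that had lost the chromatin regulators Ezh2, Snf5 or both. The set held Igf2, H19, Grb10, Dlk1, Nnat, Mest, Peg10, Plagl1, Peg3 and Ndn, 10 genes in all, chosen by name. A gene was read through every probe set of the array whose annotation named that gene alone, and its main probe set was the brightest by mean log2 intensity across all arrays. In this way 9 of the 10 genes were measured, by 22 of 22626 probe sets, among 12393 genes that could be read by the same rule. The only probe set for H19 also named the microRNA gene Mir675 inside it, so H19 has no value here.

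The platform was the Affymetrix Mouse 430A 2.0 array, used for 6 groups with 23 arrays in all. The fibroblasts (MEFs, grown from mouse embryos at E13.5) were Ezh2-deficient (3 arrays), with 3 wild-type arrays as their control, or deficient for both Snf5 and Ezh2 (3 arrays), again with 3 wild-type arrays as control. CD8+ T cells were purified from Snf5-deficient lymphomas (5 arrays) and from wild-type mice (6 arrays), both from mice 10 to 15 weeks old. Inactivation in the fibroblasts was conditional. Sample titles call the arrays of each group biological replicates. The sources used here do not give the Cre driver, the strain, or the number of clones or embryos. Nor do they say whether the replicates were separate cultures or animals, so a p-value here speaks only of array-to-array spread. Ezh2 is the methyltransferase of Polycomb repressive complex 2, while Smarcb1 codes for Snf5, a core part of the SWI/SNF chromatin remodeller.

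Imprinted genes are expressed mainly from the copy inherited from 1 parent, which is set by DNA methylation laid down in the germ line. Many of them act on fetal and placental growth: as a rule, paternally expressed genes promote growth and maternally expressed genes restrain it. They lie in clusters that share a control region, and many are switched down after birth together, as a network in which the zinc finger protein Plagl1 (Zac1) takes part in mice. Polycomb repressive complex 2 contributes to the silent copy at some clusters.

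The upstream DNA of genes on which the results below turn is shown here because imprinted promoters are often CpG rich and their CpG sites carry the methylation that silences a copy. The sequences are the 250 bases before a RefSeq transcript start in GRCm38.p6, 5′ to 3′ on the gene's own strand, with each CG in capitals. Of the 10 genes, 8 had such a window, and several had more than 1 start, which gave 14 windows.
Mest (chr6:30737800-30738049, plus strand): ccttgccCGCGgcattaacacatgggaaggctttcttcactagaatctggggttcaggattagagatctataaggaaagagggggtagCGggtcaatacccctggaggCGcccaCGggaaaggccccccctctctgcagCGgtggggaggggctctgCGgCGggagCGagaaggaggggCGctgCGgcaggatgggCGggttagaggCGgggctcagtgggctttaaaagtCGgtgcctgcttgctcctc
Dlk1 (chr12:109452573-109452822, plus strand): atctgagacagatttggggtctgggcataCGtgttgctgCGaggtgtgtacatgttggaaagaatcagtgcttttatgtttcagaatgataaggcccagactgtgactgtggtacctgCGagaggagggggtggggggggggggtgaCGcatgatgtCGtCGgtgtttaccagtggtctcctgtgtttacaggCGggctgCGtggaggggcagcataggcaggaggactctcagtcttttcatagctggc
Nnat (chr2:157559828-157560077, plus strand): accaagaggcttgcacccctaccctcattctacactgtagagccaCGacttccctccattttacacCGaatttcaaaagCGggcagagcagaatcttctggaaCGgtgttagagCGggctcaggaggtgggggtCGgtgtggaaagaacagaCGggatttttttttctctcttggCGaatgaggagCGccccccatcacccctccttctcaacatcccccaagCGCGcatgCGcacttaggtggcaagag
Plagl1 (chr10:13090582-13090831, plus strand): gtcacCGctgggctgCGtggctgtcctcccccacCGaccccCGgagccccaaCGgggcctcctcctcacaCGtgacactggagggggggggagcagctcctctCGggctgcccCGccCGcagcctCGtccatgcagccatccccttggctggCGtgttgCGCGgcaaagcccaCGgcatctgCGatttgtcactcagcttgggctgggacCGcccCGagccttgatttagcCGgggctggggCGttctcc
Peg3 (chr7:6730420-6730669, minus strand): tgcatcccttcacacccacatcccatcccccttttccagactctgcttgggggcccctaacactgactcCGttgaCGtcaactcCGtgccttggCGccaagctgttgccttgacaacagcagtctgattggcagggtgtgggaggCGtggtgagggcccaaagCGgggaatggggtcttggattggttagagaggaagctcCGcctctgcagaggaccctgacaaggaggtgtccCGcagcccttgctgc

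Windows of 300 bases, which add the 50 bases after the start, held between 2 and 45 CG dinucleotides over the 14 starts. A median of 7, with quartiles of 3 and 20, was found over all 32851 promoter windows. The Plagl1 window held 26 CG, the Mest and Nnat windows shown held 17 each, the Peg3 window 13 and the Dlk1 window 9. Grb10 had 45 CG at one start and 9 at another. The hexamer TGCCGC, bound in its methylated form by the imprint-protecting factor Zfp57, was searched on both strands and found in 6 windows of 5 genes (Mest, Nnat, Plagl1, Grb10 and Igf2), against 11.6% of all windows. Of these 6, 2 are Mest windows that start 3 bases apart and hold the same matches, so the count holds those matches more than once. The palindrome GGGGCCCC, related to the GC-rich site of Plagl1, was found in the Peg3 window only, among these 14, and in 1.08% of all windows. TATAAA was in 0 of the 14 windows and in 13.6% of all windows. These are letter matches in fixed windows.

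The deleted genes were read first. Ezh2 fell by 2.18 on the log2 scale in Ezh2-deficient MEFs (adjusted p = 9.3e-06), and in Snf5 Ezh2-deficient MEFs Ezh2 fell by 1.66 and Smarcb1 fell by 2.46 (limma, adjusted over all probe sets, as every adjusted p here). In lymphoma cells Smarcb1 fell by 3.65 (adjusted p = 0.0024) and read 8.30, 8.49, 5.81, 5.64 and 8.67. The place of these probe sets relative to the deleted exons is not known here. Fibroblast markers averaged 12.5 to 13.2 on the log2 scale over the MEF arrays, and 4 of 7 T cell markers lay in the lowest 25% of values on every MEF array.

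Several arrays stood apart. The wild-type MEF arrays of both sets were the same 3 hybridisations, summarised in separate runs, and were counted once, so both MEF comparisons share all their controls. The Y-linked gene Eif2s3y read 8.24, 3.65 and 4.00 in the 3 Ezh2-deficient arrays and 8.02 or more in all other MEF arrays. The X-linked transcript Xist read 6.45, 9.56 and 9.52 in the same 3 arrays. Among the T cell samples, wild-type arrays 1 and 6 read 10.7 and 10.6 for Cd8a, where the other 4 wild-type arrays read 13.3 to 13.6. Their B cell markers (4 genes measured) averaged 11.9 and 11.8, against 7.29 to 8.62 in the other 4, and their myeloid markers (7 genes) averaged 11.8 and 11.7, against 7.25 to 8.15. In lymphomas the B cell markers averaged 4.91 to 6.51 and the myeloid markers 8.34 to 10.3, with Itgam alone among the 7 in the lowest 25% of values on every lymphoma array. The growth genes in T cells are therefore given with and without wild-type arrays 1 and 6. In bulk RNA, fewer cells of a type and less RNA per cell cannot be told apart.

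Loss of both Snf5 and Ezh2 in fibroblasts went with higher levels of 6 of the 9 imprinted growth genes: Mest, Dlk1, Nnat, Peg10, Plagl1 and Igf2. The largest differences were 7.37-fold for Mest, 6.58-fold for Dlk1 and 4.91-fold for Nnat, and none of the 9 was lower at the threshold. An adjusted p under 0.05 was the threshold, which 13.2% of the 12393 genes passed as higher and 14.3% as lower. At an unadjusted p under 0.05, 7 were higher and 0 lower by limma. The share of all genes at an unadjusted threshold is not given here, so the shares above cannot be set beside that count. The median log2 difference of the 9 genes was 1.20, against -0.003 over all genes. Over all 22 probe sets, 8 passed, and each of these was higher.

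The growth factor came out with a modest and tight difference. Igf2, the insulin-like growth factor that drives fetal growth from the paternal copy, read 13.99, 14.04 and 14.06 on the log2 scale in Snf5 Ezh2-deficient MEFs, against 13.09, 13.21 and 13.20 in wild-type MEFs. The groups did not overlap, although Igf2 already stood at percentile 99.2 of all values on the wild-type array where it ranked lowest. The log2 difference was 0.86 (95% interval 0.67 to 1.05, adjusted p = 6.5e-05), a 1.81-fold rise. Its second probe set rose by 0.97 (adjusted p = 0.0029).

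Grb10 encodes an adaptor that binds the insulin and IGF1 receptors and restrains growth, from the maternal copy in most mouse tissues. It read 12.40, 12.39 and 12.25 in Snf5 Ezh2-deficient MEFs, against 12.12, 12.17 and 12.05 in wild-type MEFs. The groups did not overlap, yet the log2 difference of 0.23 (interval 0.06 to 0.41) had an adjusted p of 0.053, over the threshold. It passed in 7 of the alternative settings, with adjusted p from 0.021 to 0.16 over all of them. The other 2 probe sets of Grb10 gave 0.32 and 0.28, with adjusted p of 0.11 and 0.13.

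Dlk1, a paternally expressed membrane protein with EGF repeats that keeps preadipocytes undifferentiated, read 10.96, 11.88 and 11.05 in Snf5 Ezh2-deficient MEFs and 8.49, 8.83 and 8.42 in wild-type MEFs. All mutant arrays lay more than 2 log2 units above the highest wild-type array. The difference was 2.72 ± 0.32 (SE, adjusted p = 0.000195). Nnat encodes neuronatin, a small membrane protein of the endoplasmic reticulum, also paternally expressed. It read 10.23, 9.48 and 9.67 in the mutant arrays, against 7.84, 7.57 and 7.08 in wild-type arrays, a difference of 2.30 ± 0.27 (SE, adjusted p = 0.000195).

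Mest, a paternally expressed hydrolase-fold protein whose loss slows fetal growth in mice, averaged 10.4 ± 0.22 in Snf5 Ezh2-deficient MEFs and 7.56 ± 0.23 in wild-type MEFs (SD, n = 3 each). The arrays read 10.42, 10.66 and 10.23 in the mutant, against 7.51, 7.81 and 7.36 in the wild type, and the distance between the groups was over 10 times their spread. The adjusted p was 1.7e-06. Peg10, a retrotransposon-derived gene needed for the mouse placenta, read 6.65, 6.87 and 6.26 in the mutant arrays and 5.31, 5.14 and 4.89 in wild-type arrays. Here the wild-type arrays lay in the lowest 25% of values, so the 2.79-fold difference (log2 1.48, adjusted p = 4.8e-05) starts near the floor of the array.

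Among the zinc finger genes, Plagl1 was higher and Peg3 was not called. Plagl1 read 12.84, 12.92 and 12.66 in Snf5 Ezh2-deficient MEFs, against 11.65, 11.55 and 11.62 in wild-type MEFs, without overlap. Its difference was 1.20 (interval 0.97 to 1.43, adjusted p = 3.2e-05), and its second probe set gave 1.30. Peg3, a paternally expressed zinc finger gene whose loss reduces growth in mice, read 10.22, 10.09 and 10.24 in the mutant arrays and 10.88, 10.51 and 10.32 in wild-type arrays. Although the groups did not overlap, the difference of -0.39 had an interval from -0.89 to 0.11. Necdin, encoded by Ndn and known for holding back growth of neurons, gave -0.13 (interval -0.32 to 0.06), and its other 7 probe sets gave values between -0.22 and 0.07, none of them called.

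**Figure D1:**
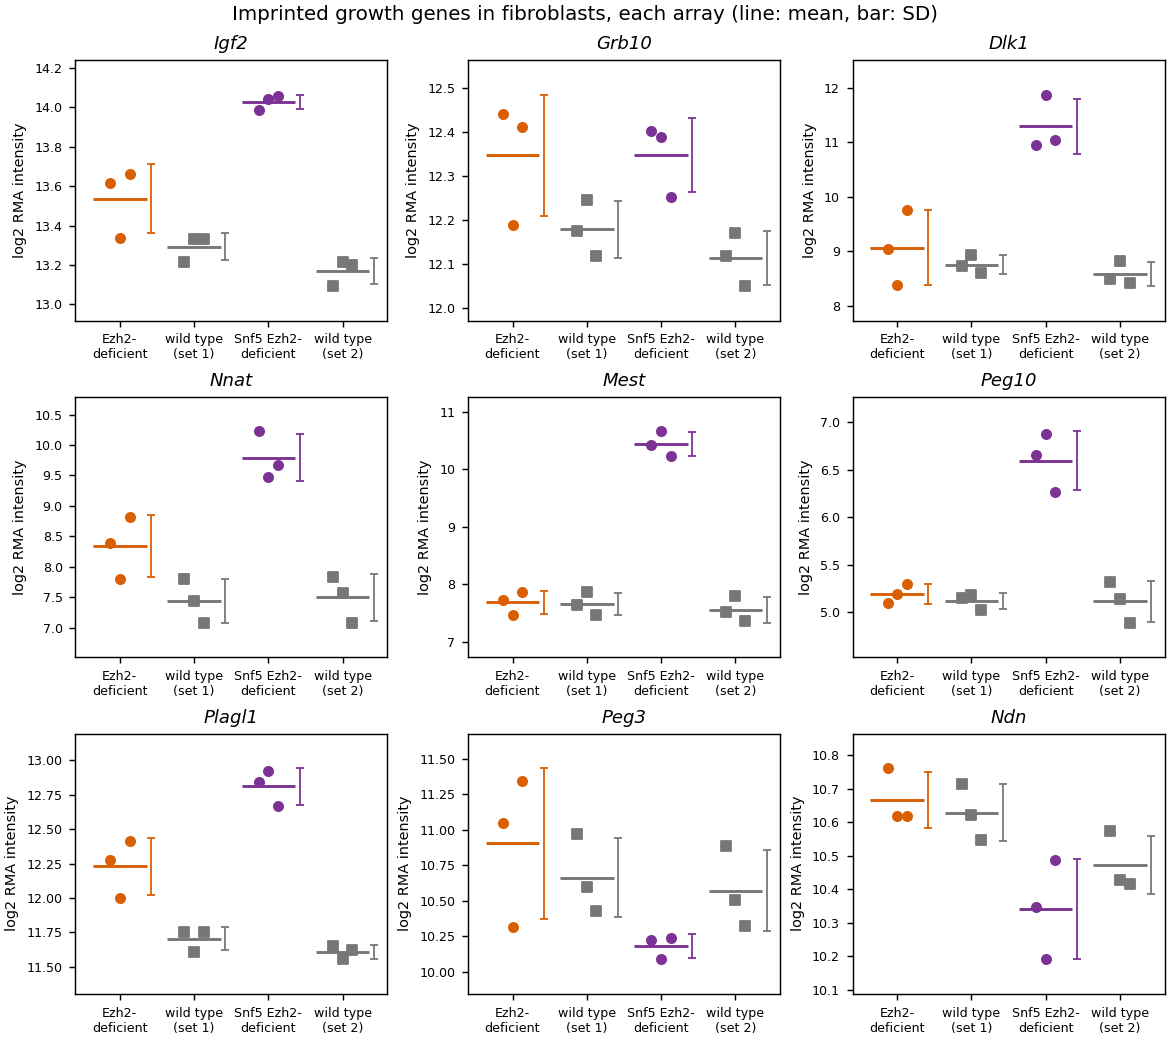
Log2 RMA intensity (vertical axis, a separate scale for each gene) of the main probe set of 9 imprinted growth genes in each MEF array, with the mean as a line and the SD as a bar, for Ezh2-deficient, wild-type (set 1), Snf5 Ezh2-deficient and wild-type (set 2) cells. Mest, Dlk1, Nnat, Peg10, Plagl1, Igf2 and Grb10 lie higher in all 3 Snf5 Ezh2-deficient arrays than in any wild-type array. Peg3 lies lower in all 3 than in any wild-type array, and Ndn overlaps with the wild-type arrays of its own set. The differences of Grb10, Peg3 and Ndn were not called. How many of all genes separate in this way was not counted.

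In cells that had lost Ezh2 alone, Plagl1 was higher. It was the only one of the 9 genes that passed, and 0 were lower by limma. Over all genes 1.02% passed as higher and 2.47% as lower at the adjusted threshold. At an unadjusted p under 0.05 by limma, 3 of the 9 were higher and 0 lower, without a share of all genes for comparison. The median log2 difference of the 9 genes was 0.24, against 0.004 over all genes. Plagl1 read 12.28, 11.9995 and 12.41 in Ezh2-deficient MEFs and 11.75, 11.61 and 11.76 in wild-type MEFs, with no overlap. The difference was 0.53 (interval 0.29 to 0.76, adjusted p = 0.031), a 1.44-fold rise, and the second probe set gave 0.42 with an adjusted p of 0.19. The call was lost in 8 of the 16 alternative settings, where the adjusted p went up to 0.13. Those were leaving out any single wild-type array or Ezh2-deficient array 1 or 3, using only the arrays of the same set, adding Eif2s3y as a covariate, and a replicate block.

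Nnat had the largest difference of the genes that did not pass in Ezh2-deficient MEFs. It read 8.40, 7.80 and 8.81, against 7.80, 7.44 and 7.08 in wild-type MEFs, so that the lowest mutant and the highest wild-type array were at the same level. The log2 difference was 0.90 (interval 0.293 to 1.498, adjusted p = 0.094). Igf2 read 13.61, 13.34 and 13.66 in the mutant, against 13.21, 13.33 and 13.33 in the wild type, with a difference of 0.24 and an adjusted p of 0.13. Both passed when Ezh2-deficient array 2 was left out, with adjusted p of 0.041 and 0.030. The differences of Mest (0.03), Peg10 (0.08), Ndn (0.04), Grb10 (0.17), Peg3 (0.24) and Dlk1 (0.31) had intervals that reached below 0. For Mest the interval was -0.29 to 0.34, next to a difference of 2.88 in Snf5 Ezh2-deficient MEFs.

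The 3 Ezh2-deficient arrays were in a similar order for most of the genes. Array 2 was the lowest of the 3 for 8 of the 9 genes, and array 3 was the highest for 7. The order of the 3 arrays over all genes was not taken, so these counts have no reference. Dlk1 read 9.05, 8.38 and 9.76 in these arrays, and Peg3 11.05, 10.32 and 11.35. The mean of the fibroblast markers ran the other way, at 12.87, 13.19 and 12.53. Eif2s3y was low in arrays 2 and 3. The part of these values in the result was not tested beyond leaving out arrays and the covariate.

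Set directly against each other, each relative to its own controls, Snf5 Ezh2-deficient MEFs were higher than Ezh2-deficient MEFs for the same 6 genes that passed against the wild type, and lower for 0 of 9 by limma. Over all genes 16.3% passed as higher and 13.6% as lower in this comparison. At an unadjusted p under 0.05 by limma, 6 of the 9 were higher and 1, Peg3, was lower, again without a matching share of all genes. The differences were 2.86 for Mest, 2.41 for Dlk1, 1.40 for Nnat, 1.40 for Peg10, 0.68 for Plagl1 and 0.62 for Igf2, with adjusted p from 2.2e-06 to 0.0037. For Nnat the adjusted p was 0.065 with Eif2s3y as a covariate. For Plagl1 the levels were thus ordered Snf5 Ezh2-deficient, Ezh2-deficient, wild type, with each step past the threshold. The step between Ezh2-deficient and wild-type cells lost its call in 8 of the 16 alternative settings. For Mest and Peg10, Ezh2-deficient and wild-type cells did not differ beyond their spread.

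Peg3 had a difference of the opposite sign in the direct comparison and was not called. Its difference was -0.63 (interval -1.13 to -0.13) with an adjusted p of 0.063, and it passed under 4 of the alternatives: the replicate block, median centring, array weights, and without Ezh2-deficient array 2. Its other probe sets gave -0.45 and -0.55, with adjusted p of 0.20 and 0.11. Grb10 differed by 0.07 (interval -0.11 to 0.24) and Ndn by -0.17 (interval -0.36 to 0.02).

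**Figure D2:**
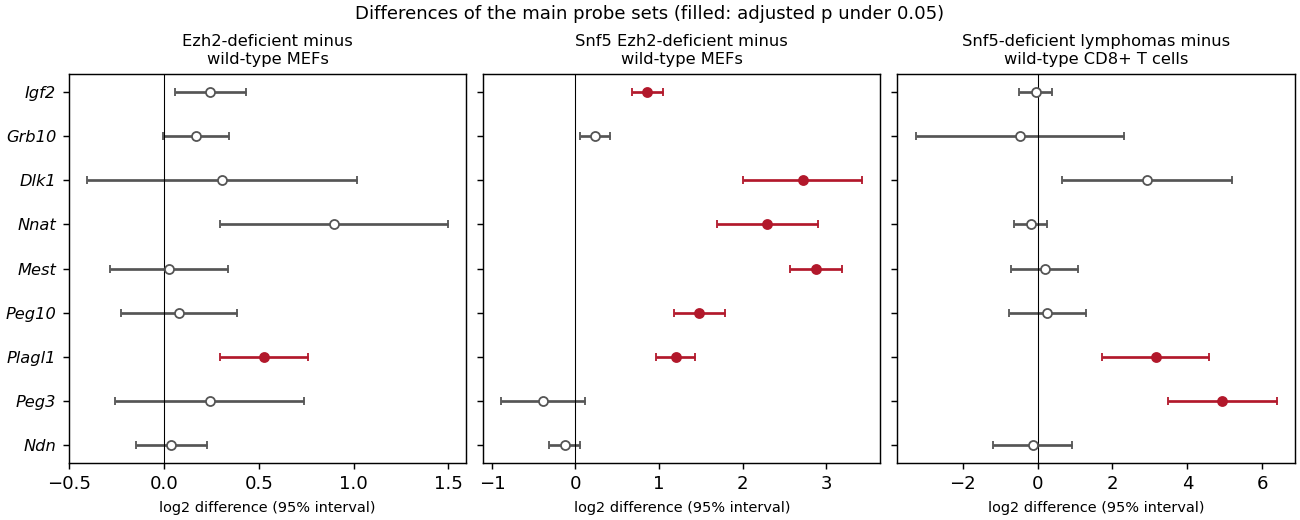
Log2 difference of the main probe set (point) with its 95% interval (bar) for 9 imprinted growth genes in Ezh2-deficient minus wild-type MEFs, Snf5 Ezh2-deficient minus wild-type MEFs and Snf5-deficient lymphomas minus wild-type CD8+ T cells, each panel on its own horizontal scale; filled points have an adjusted p under 0.05. The filled points are Plagl1 in the first panel, Mest, Dlk1, Nnat, Peg10, Plagl1 and Igf2 in the second, and Peg3 and Plagl1 in the third.

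Profiles most like those of Mest and Dlk1 were sought among all genes, by the root mean square difference over the 9 distinct MEF arrays of log2 values centred on the wild-type mean. For Mest the closest 3 were C1s1 (0.25), Slc40a1 (0.34) and Dlk1 itself (0.34). For Dlk1 they were Mest (0.34), Scn3b (0.40) and Klk8 (0.46). C1s1 was higher by 2.79 and Slc40a1 by 2.59 in Snf5 Ezh2-deficient MEFs, close to the 2.88 of Mest. Nnat ranked 18 and Peg10 ranked 43 among all genes in closeness to Dlk1. Since all these genes share the same 9 arrays, the distances are descriptions only.

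The genes that share an imprinted cluster with a growth gene did not all move with it in Snf5 Ezh2-deficient MEFs. Over all genes 13.2% passed as higher and 14.3% as lower in this comparison. In the Dlk1 cluster, the maternally expressed long non-coding RNA Meg3 read 12.45, 12.69 and 12.47 in the mutant and 11.51, 11.34 and 11.29 in the wild type, a difference of 1.16 (adjusted p = 6.7e-05). Rian, another maternally expressed RNA of that cluster, was higher by 0.87 with an adjusted p of 0.0499, which was over the threshold in 9 of 15 alternatives, up to 0.16. Of this cluster, 1 paternally expressed gene (Dlk1) and 2 maternally expressed RNAs were followed here.

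Around Peg10 the called differences ran in both directions, while Calcr (-0.10), Pon2 (0.09) and Dlx5 (0.07) were not called. Sgce, which encodes epsilon-sarcoglycan and shares the control region of Peg10, rose by 0.81 (adjusted p = 1.6e-05), and Asb4 rose by 0.74 from wild-type values in the lowest 25% of the arrays. Tfpi2, a maternally expressed protease inhibitor gene, read 5.20, 5.26 and 5.25 in Snf5 Ezh2-deficient MEFs, against 7.54, 7.66 and 7.80 in wild-type MEFs, and fell by 2.43. Pon3, a paraoxonase gene of the same cluster, read 5.34, 5.14 and 5.42 in the mutant, against 7.06, 7.23 and 7.44 in the wild type, and fell by 1.95. The mutant values of Tfpi2 and Pon3 lay below every wild-type array and in the lowest 25% of values.

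For Mest and Nnat the neighbours showed no call. Copg2, which overlaps the Mest cluster, differed by 0.18 (interval -0.07 to 0.42, adjusted p = 0.30), next to 2.88 for Mest. Blcap, in whose intron Nnat lies, differed by 0.11 (adjusted p = 0.46), next to 2.30 for Nnat. In the Ndn cluster, Snrpn fell by 0.24 and Peg12 by 0.37, and Atp10a, also in the lowest 25% of wild-type values, rose by 0.67 (adjusted p = 0.0094). Magel2, Mkrn3 and Ube3a of that cluster were not called. Nor were the partners of Peg3 (Usp29, Zim1 and Zim3), Igf2 (Ins2) and Grb10 (Ddc). In Ezh2-deficient MEFs the smallest adjusted p among the 22 cluster partners was 0.076, for Ddc of the Grb10 cluster (0.34).

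**Figure D3:**
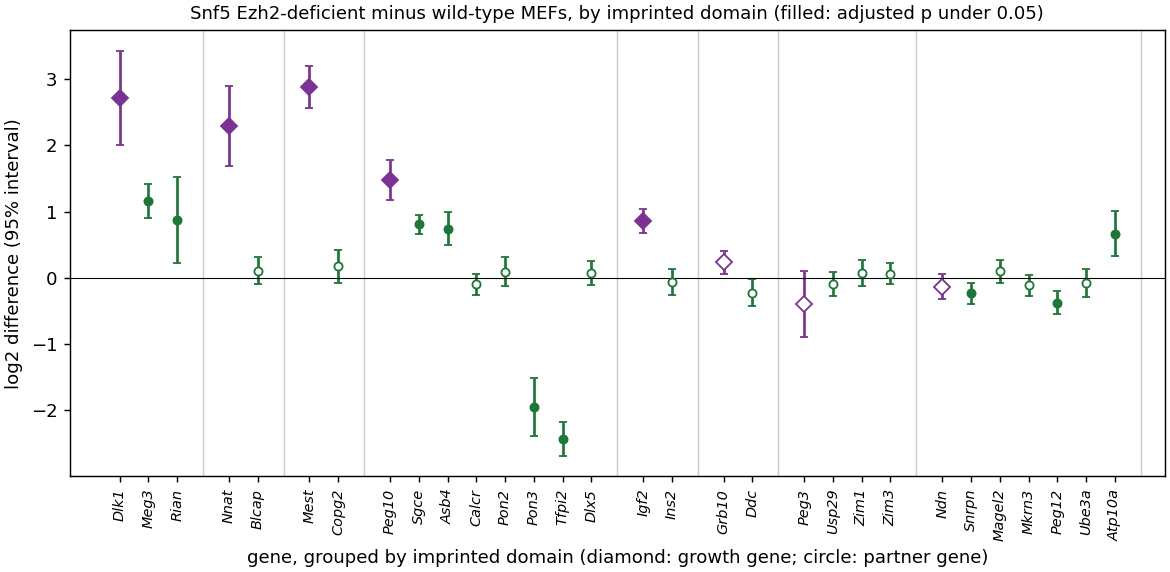
Log2 difference with its 95% interval (vertical axis) between Snf5 Ezh2-deficient and wild-type MEFs for 8 growth genes (diamonds) and 22 partner genes of their imprinted clusters (circles), grouped by cluster along the horizontal axis; filled symbols have an adjusted p under 0.05. Meg3, Rian, Sgce, Asb4 and Atp10a are filled above 0, while Tfpi2, Pon3, Peg12 and Snrpn are filled below 0.

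Calls among other imprinted genes were made in both directions in the same comparison, in which 13.2% of all genes passed as higher and 14.3% as lower. Of 15 other paternally expressed imprinted genes measured, 4 were higher and 4 lower, with a median of -0.07. Sgce (0.81) and Nap1l5 (0.36) were among the higher ones, and Sfmbt2 (-0.49) and Peg12 (-0.37) among the lower ones. Of 29 maternally expressed imprinted genes, 6 were higher and 4 lower, with a median of 0.04. Parental class here is that of the list, and the copy expressed in these cells was not measured. Besides Tfpi2, Pon3 and Meg3, the largest change was in Cdkn1c, a cyclin-dependent kinase inhibitor that limits fetal growth, which read 9.06, 8.78 and 8.92 in the mutant and 10.44, 9.93 and 9.72 in the wild type. It fell by 1.11 (adjusted p = 0.0013).

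In the pathway of Igf2, 7 of 21 IGF and insulin signalling genes were higher and 9 lower in Snf5 Ezh2-deficient MEFs, where the shares of all genes were 13.2% and 14.3%. The binding protein gene Igfbp3 had the largest difference, with 9.41, 9.53 and 9.57 in the mutant, against 7.52, 8.04 and 7.30 in the wild type, a rise of 1.88. Igfbp7 fell by 1.18 and Igfbp5 by 1.08, so binding protein genes moved both ways. Igfbp2 gave 1.05, but lost its call in 7 of 15 alternatives, with adjusted p up to 0.12. Of 18 genes of the Notch pathway and of adipocytes, both tied to Dlk1, 6 were higher and 5 lower, beside the same shares of all genes. Notch3 rose by 1.53 and Notch1 by 1.11, while the ligand gene Jag1 fell by 0.88 and the adipocyte fatty acid binding protein gene Fabp4 fell by 1.44. Jag1 lost its call in 5 of 15 alternatives.

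Among 17 factors that maintain imprints or modify chromatin, 4 were higher in Snf5 Ezh2-deficient MEFs and the others were not called, with 13.2% of all genes higher. These were Dnmt3b, a DNA methyltransferase gene, with 0.34, Ehmt2 with 0.27, Eed with 0.25 and Yy1 with 0.19. Dnmt3b, Eed and Yy1 each lost the call in 5 or 6 of 15 alternatives. Against Ezh2-deficient MEFs, the same 5 lists gave 1 higher and 3 lower of 15, 5 and 6 of 29, 5 and 8 of 21, 6 and 5 of 18, and 7 and 1 of 17, in the order in which the lists are described here. Over all genes 16.3% were higher and 13.6% lower in that comparison.

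In Ezh2-deficient MEFs, where 1.02% of all genes were higher and 2.47% lower, each list held 0 or 1 call. Other paternally expressed imprinted genes had no call, and the smallest adjusted p was 0.11, for Airn (0.26). Gatm (0.41) was the 1 call among 29 maternally expressed genes, Foxo1 (-0.24) the 1 among 21 IGF and insulin genes, Notch3 (0.50) the 1 among 18 Notch and adipocyte genes, and Uhrf1 (-0.58) the 1 among 17 maintenance factors. Each of these calls was lost in between 6 and 12 of the alternatives tried.

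Some markers of other cell types were also called in Snf5 Ezh2-deficient MEFs, where 13.2% of all genes passed as higher and 14.3% as lower. Of 6 cartilage markers, 2 were higher, Col2a1 (1.54) and Col11a1 (1.51), and the list averaged 7.31 to 7.50 in the mutant arrays, against 6.83 to 6.96 in the wild-type arrays, with Matn1 in the lowest 25% of values throughout. Of 7 neural markers, Tubb3 (0.39) and Stmn2 (0.71) were higher and Nes (-0.80) was lower, with list means of 6.88 to 7.01 in the mutant and 6.87 to 6.97 in the wild type. Sox2, Snap25 and Elavl4 lay in the lowest 25% of values in all of these arrays. Of 5 endothelial markers, Tek (1.46) was higher and 1 other was lower, and of 5 epithelial markers Krt18 (-1.20) was lower. Of 7 skeletal muscle and 6 thymocyte markers, 1 each was lower, and of 8 fibroblast markers 1 was higher and 1 lower. T cell, myeloid, erythroid and B cell markers had no call. The part of these markers in the result was not tested. Fibroblast markers averaged 12.6 to 12.9 in the mutant and 12.7 to 12.8 in the wild type.

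In Snf5-deficient lymphomas, Peg3 and Plagl1 were higher than in wild-type CD8+ T cells, and none of the 9 genes was lower. Over all genes 9.13% passed as higher and 7.71% as lower. At an unadjusted p under 0.05, 3 of the 9 were higher and 0 lower by limma, with no matching share of all genes. The median of the 9 was 0.19, against -0.07 over all genes. Of the 22 probe sets, 5 passed, all 3 of Peg3 and both of Plagl1.

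Peg3 read 11.29, 11.48, 10.65, 10.38 and 11.08 in the lymphomas and had a lowest, median and highest value of 4.18, 5.76 and 7.91 in the 6 wild-type arrays. Every lymphoma lay above every wild-type array by more than 2 log2 units. The difference was 4.93 (interval 3.49 to 6.38), a 30.5-fold rise with an adjusted p of 0.00085. Of the 6 wild-type arrays, 3 lay in the lowest 25% of values, so this fold starts in part near the floor of the array. An exact two-sided permutation test of the group means gave p = 0.0043, the smallest that 5 against 6 arrays allow. The other probe sets of Peg3 rose by 2.60 and 3.24 (6.08-fold and 9.43-fold), from wild-type values in the lowest 25% on all 6 arrays. In the lymphomas they averaged 6.33 and 7.18, against 10.98 for the main probe set. In wild-type MEFs (set 1) they averaged 9.55 and 9.03, against 10.66. The size of the rise thus depends on the probe set. Wild-type arrays 1 and 6 gave the highest wild-type values of the main probe set, 7.81 and 7.91, and without them the rise was 5.84.

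Plagl1 read 12.03, 12.75, 11.51, 12.30 and 11.64 in the lymphomas, against a lowest, median and highest value of 7.11, 9.08 and 10.48 in wild-type T cells. The groups did not overlap, but the wild-type arrays spread over more than 3 log2 units. The difference was 3.15 (interval 1.71 to 4.58, adjusted p = 0.0089), an 8.87-fold rise, with an exact permutation p of 0.0043. Without wild-type arrays 1 and 6, which read 10.29 and 10.48, it was 3.89 (adjusted p = 0.00115). The second probe set gave 3.16, and 3.11 without these arrays.

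Dlk1 was high in 3 of the 5 lymphomas. It read 3.93, 9.74, 7.83, 9.53 and 4.20 in lymphomas 1 to 5, against 3.88 to 4.35 in wild-type T cells, all 6 of which lay in the lowest 25% of values. The mean difference of 2.93 therefore had a wide interval (0.66 to 5.20), an adjusted p of 0.080 and an exact permutation p of 0.074. It passed when lymphoma 1 or lymphoma 5 was left out, and gave 3.05 (adjusted p = 0.10) without wild-type arrays 1 and 6.

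The lymphomas with high Dlk1 were those that read high for Eif2s3y, which was 3.45, 11.81, 11.93, 12.55 and 3.32 in lymphomas 1 to 5. Xist read 13.19, 5.44, 5.15, 4.85 and 12.25 in the same order. With the Eif2s3y level as a covariate, the difference of Dlk1 was 1.46 (adjusted p = 0.23). In wild-type arrays 3 and 4 Eif2s3y read 9.84 and 6.11, Xist read 13.05 and 12.86, and Dlk1 read 3.92 and 4.09. The part of these values in the Dlk1 result was not tested beyond this covariate.

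Other genes of the Dlk1 cluster were measured in the same lymphomas. Rian read 6.92, 7.57, 7.80, 6.82 and 5.38 in the lymphomas and 4.01 to 4.96 in wild-type T cells, so it was higher in all 5, including the lymphomas in which Dlk1 was at the wild-type level. The wild-type values lay in the lowest 25% on all 6 arrays. Its difference was 2.45 (adjusted p = 0.0019), and 2.42 without wild-type arrays 1 and 6. Meg3 read 6.53, 7.80, 10.35, 8.42 and 6.84, against 5.82 to 6.52, and also did not overlap, but the difference of 1.72 had an adjusted p of 0.065. It passed without lymphoma 1 (adjusted p = 0.036), and was 1.62 (adjusted p = 0.11) without wild-type arrays 1 and 6. Sgce, of the Peg10 cluster, read 5.61, 8.05, 8.72, 8.74 and 5.32 in the lymphomas, high in the same 3 as Dlk1. In wild-type T cells Sgce read 8.52 and 8.99 in arrays 1 and 6 and 5.39 to 6.00 in the others, and the mean difference was not past the threshold (0.61, adjusted p = 0.68, and 1.65 with adjusted p = 0.14 without arrays 1 and 6).

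**Figure D4:**
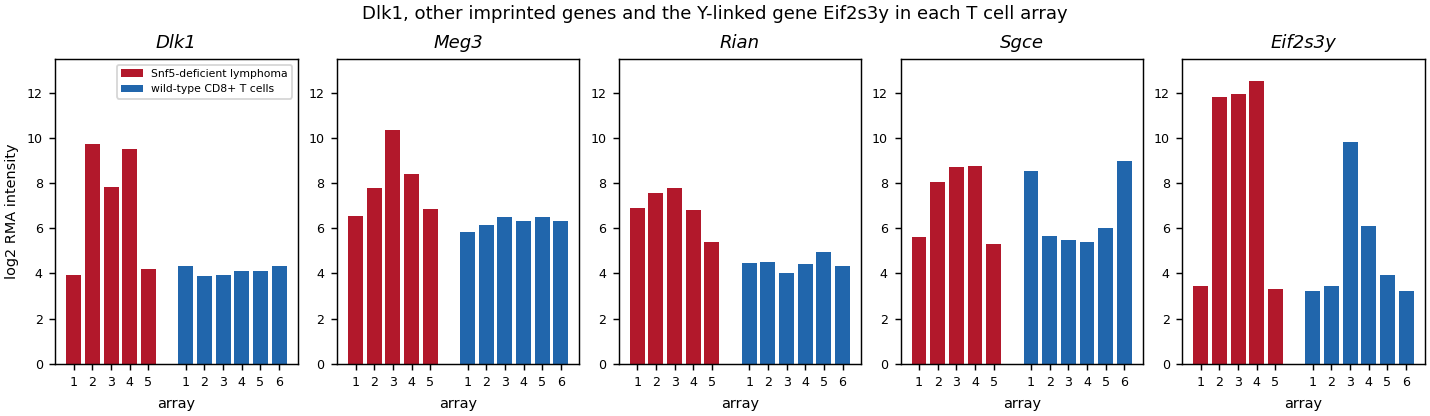
Log2 RMA intensity (vertical axis from 0) of Dlk1, Meg3, Rian, Sgce and the Y-linked gene Eif2s3y in each of the 5 Snf5-deficient lymphoma arrays and the 6 wild-type CD8+ T cell arrays, numbered along the horizontal axis. Lymphomas 2, 3 and 4 are high for Dlk1, Sgce and Eif2s3y, whereas Rian is above the wild-type range in all 5.

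For the remaining genes the ranges of lymphomas and wild-type T cells overlapped. Mest read 8.24, 8.71, 8.41, 8.84 and 8.18 in the lymphomas and from 6.72 to 9.37 in the wild type, a difference of 0.19 (interval -0.71 to 1.09). Without wild-type arrays 1 and 6, which held the highest Mest values, it was 0.66 (adjusted p = 0.18). By its main probe set, Grb10 spread widely in both groups. It read from 5.30 to 10.31 in the lymphomas and from 4.88 to 11.47 in wild-type T cells. The interval of its difference ran from -3.26 to 2.31. Its difference was -0.47, and 0.66 (adjusted p = 0.71) without wild-type arrays 1 and 6. Its other 2 probe sets read 3.86 to 4.90 in the lymphomas and 3.59 to 5.47 in the wild type. They lay in the lowest 25% of values on all 5 lymphoma arrays, and on 6 and 3 of the 6 wild-type arrays. In wild-type array 1, where the main probe set read 11.47, they read 3.61 and 4.90. In lymphoma 2, where it read 10.31, they read 4.00 and 4.68. In wild-type MEFs (set 1) the main probe set averaged 12.18 and the other 2 averaged 10.14 and 8.08. The other 2 thus did not show the spread of the main one in T cells, and the reason was not tested.

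Igf2 and Nnat were near the floor in T cells. Igf2 lay in the lowest 25% of values of 4 of 5 lymphoma and 6 of 6 wild-type arrays, and differed by -0.05 (interval -0.49 to 0.39). Nnat lay there in 4 of 5 and 5 of 6 arrays, with a difference of -0.19 (interval -0.62 to 0.25). Peg10 read 6.14 in lymphoma 2 and 3.75 to 3.91 in the other 4, against 3.31 to 5.27 in the wild type, a difference within this spread (0.26, adjusted p = 0.73). Without wild-type arrays 1 and 6 the differences were -0.19 for Igf2, -0.26 for Nnat and 0.38 for Peg10, with adjusted p of 0.52, 0.42 and 0.56. Ndn gave -0.13 (interval -1.19 to 0.93), and 0.49 without wild-type arrays 1 and 6. At least 1 alternative turned the sign of Igf2, Peg10 and Ndn, whereas that of Nnat stayed the same in each alternative run.

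Within the wild-type group, arrays 1 and 6 were the highest pair for 6 of the 9 genes: Dlk1, Grb10, Mest, Ndn, Peg3 and Plagl1. Lymphoma 2 was the highest lymphoma for 7 of 9. The part of the B cell and myeloid markers in the wild-type values was not tested, beyond leaving the arrays out. Between the groups, over all arrays, 9.13% of all genes passed as higher and 7.71% as lower. Of the markers, 1 of 4 B cell markers was lower in lymphomas (Cd79b, -4.01), as were 3 of 6 thymocyte markers (Dntt, -2.54, among them). The T cell marker Cd2 (-4.05) and 1 of 4 erythroid markers were also lower. Of 7 myeloid markers, with a median difference of 0.40, no call was made, and of 8 fibroblast markers 1, Pdgfrb (-0.53), was lower. Without wild-type arrays 1 and 6, 13.2% of all genes passed in each direction. In that setting 3 of 7 myeloid markers were higher, 3 of 4 B cell markers were lower, and 2 of 8 fibroblast markers were higher, Fn1 (4.25) and Vim (1.18). Also lower were 3 of 6 thymocyte markers, and 1 each of 7 T cell, 7 skeletal muscle and 4 erythroid markers. Neural markers gave 2 higher and 1 lower of 7, and epithelial markers 1 higher and 1 lower of 5. Over all arrays, the neural marker Snap25 (4.49) and the epithelial marker Epcam (3.82) were higher. Elavl4 (-1.90) and Cdh1 (-3.59) of the same lists were lower there. Their part in the values of the growth genes was not tested.

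**Figure D5:**
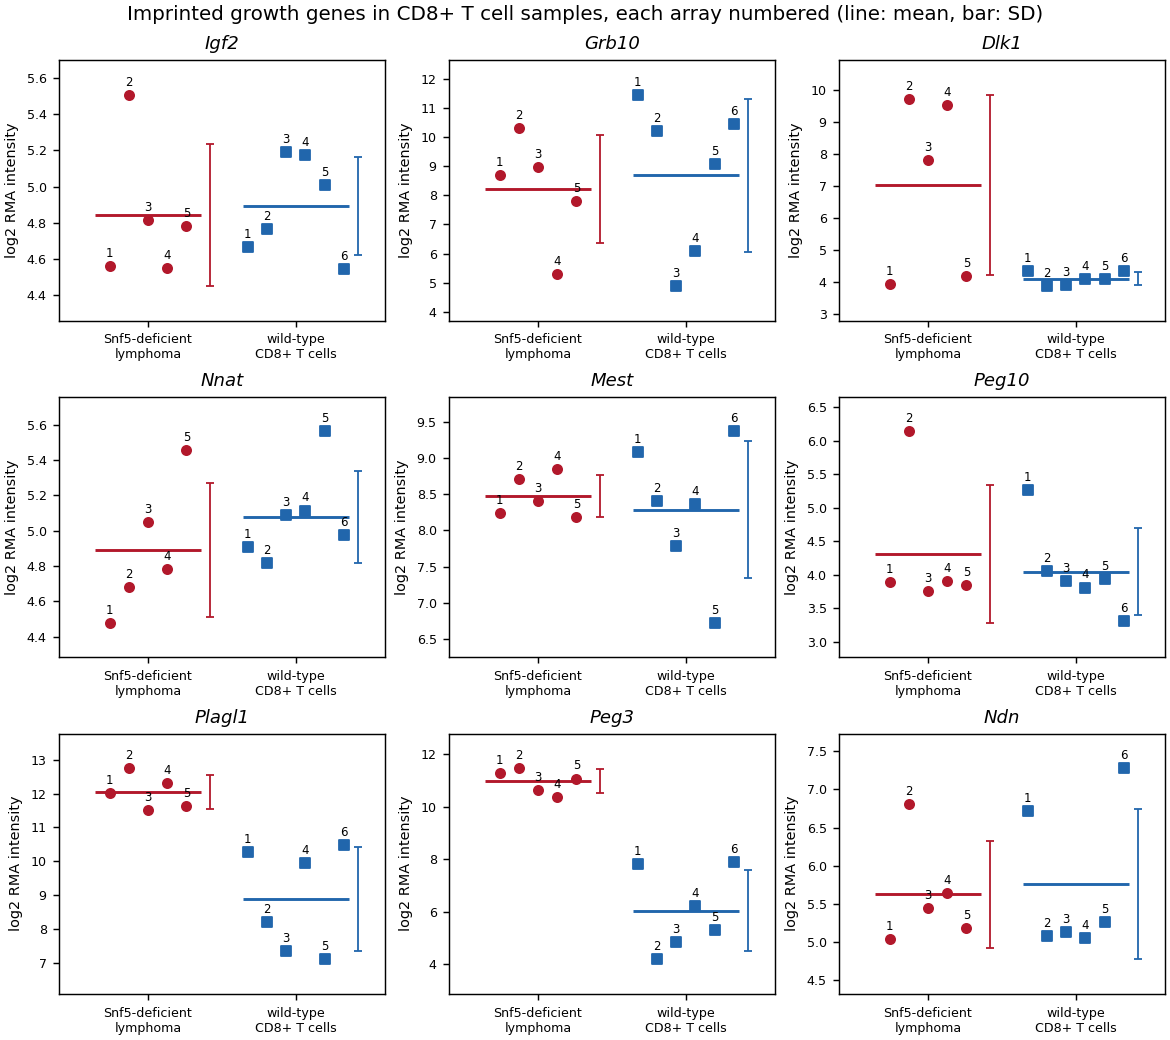
Log2 RMA intensity (vertical axis, a separate scale for each gene) of the main probe set of 9 imprinted growth genes in Snf5-deficient lymphomas and wild-type CD8+ T cells, with array numbers at the points, the mean as a line and the SD as a bar. Peg3 and Plagl1 are higher in all 5 lymphomas than in all 6 wild-type arrays, and Dlk1 is high in lymphomas 2, 3 and 4.

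In related lists the calls in lymphomas stand beside 9.13% of all genes higher and 7.71% lower. No call was made among 15 other paternally expressed imprinted genes, with Nap1l5 closest (-1.96, adjusted p = 0.051, and called in 7 of the alternatives). Of 29 maternally expressed ones, Rian was higher and the sterol-binding protein gene Osbpl5 was lower. Osbpl5 read 5.78, 5.70, 6.83, 5.86 and 5.78 in lymphomas, against 7.22 to 9.50 in wild-type T cells, and fell by 2.60. Without wild-type arrays 1 and 6, 1 of 15 paternally expressed genes was higher and 2 lower, and 6 of 29 maternally expressed genes were higher and 3 lower, while the share of all genes was 13.2% in each direction.

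Of 21 IGF and insulin signalling genes, 1 was higher and 3 were lower in the lymphomas, and 2 and 4 without wild-type arrays 1 and 6. Igfbp4 read 7.73, 6.82, 9.33, 8.04 and 7.70 in the lymphomas and 10.90 to 12.08 in the wild type, and fell by 3.63. The receptor gene Igf1r fell by 1.42 and the adaptor gene Irs2 by 1.51, while Akt1 rose by 0.70. Among 18 Notch and adipocyte genes, 3 were higher and 2 lower, and 4 and 2 without the 2 arrays. Notch1 read 9.19, 9.60, 9.27, 9.10 and 9.37 in the lymphomas, against 11.17 to 12.65 in wild-type T cells, and fell by 2.50. The Notch ligand genes Jag2 and Dll1 rose by 1.38 and 1.21. The lipoprotein lipase gene Lpl rose by 3.12 (adjusted p = 0.047), by 4.49 without wild-type arrays 1 and 6, and lost its call when any of 9 single arrays was left out. Of 17 maintenance factors, Setdb1 was higher (0.56) and Tet1, a 5-methylcytosine oxidase gene, was lower (-1.90). Setdb1 lost its call in 14 of 19 alternatives. Without wild-type arrays 1 and 6, 2 of the 17 were higher and 2 lower.

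The fibroblast and T cell arrays were normalised in separate runs, so levels cannot be set against each other with a test. Side by side, Igf2 averaged 13.2 in wild-type MEFs (set 2) and 4.89 in wild-type CD8+ T cells, and Ndn averaged 10.5 and 5.75 in the same groups. Mest was not in the lowest 25% of values of any array of either cell type. Plagl1 passed as higher in each of the 3 comparisons with wild-type cells, the first and second of which share their controls. Its call in Ezh2-deficient MEFs was lost in 8 of the 16 alternative settings, and its second probe set was not called there. Its log2 differences were 0.53 in Ezh2-deficient MEFs, 1.20 in Snf5 Ezh2-deficient MEFs and 3.15 in Snf5-deficient lymphomas. Peg3 gave 0.24 and -0.39 in the MEF comparisons and 4.93 in the lymphomas. Mest gave 0.03, 2.88 and 0.19 in the same order.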

How the data were processed

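Per the labels' protocols, the RNA came from a Trizol and column extraction, and the authors summarised the arrays with RMA (software version not given in the sources used here). All deposited values are linear RMA intensity without detection calls, and log2 was taken here. Arrays give no depth: their number (3 to 6 a group) limits precision. Of 22690 probe sets, 64 controls were left out. Genes other than the imprinted growth genes were read by the same main probe set rule. Symbols came from the platform annotation, and upstream sequences from RefSeq (GRCm38.p6).

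The control arrays of both MEF sets with the same number differed, after an offset per probe set, by an SD of 0.022 to 0.024, against 0.152 to 0.158 for different numbers (5565 probe sets with mean log2 above 9). They were counted once: set 2 was brought to set 1 by the controls' offset, which left 9 MEF arrays and 6 residual degrees of freedom, and each contrast equal to mutant minus its own controls. The 11 T cell arrays were fitted apart, with 9 degrees of freedom. Tests used limma 3.58.1 in R 4.3.3 (lmFit, eBayes), with Benjamini-Hochberg adjustment over all 22626 probe sets. The steps were tested on simulated data. The alternatives were other fits and scalings, covariates, a replicate block and leaving out arrays. From each list, up to 4 called genes with the largest change were named, or the one with the smallest p, plus cluster partners; Cd8a, Atp10a, marker genes and the other arrays' Xist values serve as checks. The genes, lists and tests were chosen with earlier results of these data known.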

Additional observations from a re-analysis of the deposited data

Results flagged for a closer look

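In groups of 4 to 10 arrays, the gap of the most extreme array to its neighbour was compared with the range of the group by Dixon's criterion, over 44 pairs of probe set and T cell group. Chance picks out about 1 in 20 groups, and 3 were picked out here, all of them for lymphoma 2. Peg10 read 6.14 in that lymphoma, where the next highest lymphoma read 3.91. The main Igf2 probe set read 5.51 there, with the next at 4.82, and the second Igf2 probe set was the lowest of the 5 at 3.09, with the next at 3.27. Without lymphoma 2, the Peg10 difference to wild-type T cells was -0.20 in place of 0.26.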

How the results depend on the processing

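Of 600 alternative values for the 9 genes, 550 kept direction and side of the threshold, 15 newly passed, 9 no longer passed and 26 turned sign, all of the last in results that had not passed. The 6 rises in Snf5 Ezh2-deficient MEFs, and Peg3 and Plagl1 in lymphomas, passed under every alternative run. In Ezh2-deficient MEFs the count of higher genes was 0 with own-set arrays only, with the Eif2s3y covariate and with the replicate block, and 0 to 3 when single arrays were left out, with 3 (Plagl1, Nnat and Igf2) without Ezh2-deficient array 2. Between both mutant MEFs, the count of lower genes was 1 (Peg3) with the replicate block, median centring and array weights, and 0 to 1 when arrays were left out. The replicate numbers were not treated as pairs in the main fit. Same-numbered arrays correlated by -0.29 to 0.20 in the MEF comparisons and by 0.10 to 0.38 in the T cell samples. Differently numbered arrays were not taken as a reference, so this check cannot tell whether the numbers pair the arrays. The block changed no other call of these genes.

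Signs turned as follows. In Ezh2-deficient MEFs, Peg10 was -0.041 with the covariate; when single arrays were left out, Mest ran from -0.068 to 0.135 (below 0 without wild-type or Ezh2-deficient array 3), Dlk1 from -0.043 to 0.648 (Ezh2-deficient array 3) and Ndn from -0.0094 to 0.082 (wild-type array 3 or Ezh2-deficient array 1). Between the mutants, Grb10 was -0.029 with the covariate and ran from -0.0130 (no Ezh2-deficient array 2) to 0.114. In lymphomas, Grb10 was 0.540 with the covariate, 0.0476 with array weights and 0.660 without wild-type arrays 1 and 6, and ran from -1.24 to 0.258 (wild-type array 1 or lymphoma 4). Ndn was 0.174 with the replicate block (in which the unpaired wild-type array 6 drops out), 0.0755 with array weights and 0.492 without wild-type arrays 1 and 6, and ran from -0.428 to 0.174 (wild-type array 1 or 6, or lymphoma 1). Igf2 was 0.010 with quantile normalisation and ran from -0.217 to 0.023 (wild-type array 3 or 4, or lymphoma 1 or 4), Mest from -0.123 (wild-type array 5) to 0.405 and Peg10 from -0.197 (lymphoma 2) to 0.505. The cause was not tested. Nnat, Peg10 and Igf2 have no lymphoma value once dim probe sets are left out.

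Over all genes, 432 were called in Ezh2-deficient MEFs, but 851 with 12 arrays as deposited, 907 with array weights, 258 with own-set arrays, 213 with the replicate block, 73 with the covariate and 87 to 443 without single arrays. In lymphomas 2088 were called, but 3227 with array weights and 3273 without wild-type arrays 1 and 6. Between the mutants 3704 were called, but 1968 with 12 arrays and 1869 with the covariate. Leaving out both wild-type arrays, and the covariate in T cells, were chosen after seeing the data.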
